A study of Mus musculus with 12 samples.

Results

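The genes described here make, regulate, esterify and export cholesterol in mouse liver tumours. They were chosen by symbol from a list and comprise 30 of the 46095 genes in the count table. Of the 30, 18 encode enzymes of the synthesis pathway from acetyl-CoA to cholesterol, 5 regulate the pathway or carry its sterols (Srebf2, Scap, Insig1, Insig2 and Stard4), 6 belong to efflux or to the liver X receptor LXR (Nr1h3, Abca1, Abcg1, Abcg5, Abcg8 and Mylip), and Soat2 esterifies cholesterol. All 30 passed the filter on low counts, with 89 or more counts in every library, among 14666 genes tested.

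Read counts per gene were collected from hepatocellular carcinomas induced in mice with diethylnitrosamine (DEN), a carcinogen that hepatocytes activate. The tumours of 7 libraries were Pck1-null (KO), without a working gene for the cytosolic phosphoenolpyruvate carboxykinase, and those of 5 libraries were labelled wild type (WT). Both groups received DEN. The labels describe neither the null allele, the age and sex of the mice nor the dose, and they do not say whether each library came from a separate animal, so each p-value reflects only the spread among the libraries at hand, which may be technical.

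Hepatocytes make cholesterol from acetyl-CoA through mevalonate, squalene and lanosterol. When sterols in the endoplasmic reticulum are scarce, Scap escorts the transcription factor SREBP2 (encoded by Srebf2) to the Golgi, where it is cleaved and released to induce the enzymes, while Insig proteins hold the complex back when sterols are plentiful. Oxysterols, which build up with cholesterol, activate LXR, and LXR induces the transporters that send cholesterol into bile or onto lipoproteins.

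Levels are CPM, read counts divided by TMM-scaled library sizes so that libraries of unlike depth can be compared, except those of Xist and the sums over cell type markers, which use unscaled library sizes. Pck1 itself had 111 to 1165 CPM in the 7 KO libraries and 1061 to 5816 CPM in the 5 WT libraries. The ranges overlapped through KO replicate 3 and WT replicate 4 alone, which did not overlap without TMM scaling (1156 and 1226 CPM). The total count was 43071365 to 46747125 in KO replicates 4, 5 and 6 and WT replicates 2 and 5 (the deeper libraries), and 17462102 to 23663506 in the other 7 (the shallower libraries). Xist, which is transcribed from the inactive X chromosome, had 86.6 to 169 CPM in 5 of 7 KO libraries (all but replicates 4 and 7) and 143 CPM in WT replicate 4, and at most 0.573 elsewhere, so its level was unevenly split between the genotypes. The 8 neutrophil markers summed to 26.7 to 1586 CPM in KO, with KO replicates 3, 4 and 6 the highest, and to 20.5 to 53.9 CPM in WT. The 8 hepatocyte markers (Alb, Ttr, Apoa1, Apob, Serpina1c, Fgb, Ahsg and Tat) had counts in every library and summed to 68076 to 165300 CPM in KO and 60564 to 172190 CPM in WT. Across all genes no difference between KO and WT passed edgeR's quasi-likelihood test at an adjusted p of 0.05 (0.0% of 14666 genes), with the smallest adjusted p at 0.0516. At an unadjusted p under 0.05, 7.25% of the genes tested were higher in KO and 7.44% lower.

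The promoters of 5 members are shown because 3 are the enzymes with the smallest p, 1 is the only member whose window holds the letters of a sterol regulatory element, and 1 is shared in part by the transporter genes Abcg5 and Abcg8. Each sequence runs from 250 bases before to 50 after a start site in RefSeq (GRCm38.p6, the assembly of mm10), 5′ to 3′ on the gene's strand. Capitals mark a CCAAT box, read as CCAAT or on the other strand as ATTGG, and in Hmgcs1 also the sterol regulatory element TCACNCCAC. Hsd17b7 lies at chr1:169969156-169969455 on the minus strand, Ebp at chrX:8193463-8193762 on the minus strand, Lss at chr10:76531355-76531654 on the plus strand, Hmgcs1 at chr13:119690101-119690400 on the plus strand, and Abcg8 at chr17:84682871-84683170 on the plus strand.
Hsd17b7: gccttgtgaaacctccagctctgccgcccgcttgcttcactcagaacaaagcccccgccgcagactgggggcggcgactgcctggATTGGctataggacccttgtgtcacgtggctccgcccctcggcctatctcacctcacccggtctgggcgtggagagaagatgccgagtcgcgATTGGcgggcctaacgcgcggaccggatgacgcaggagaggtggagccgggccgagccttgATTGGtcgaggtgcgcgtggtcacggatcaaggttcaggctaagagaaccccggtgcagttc
Ebp: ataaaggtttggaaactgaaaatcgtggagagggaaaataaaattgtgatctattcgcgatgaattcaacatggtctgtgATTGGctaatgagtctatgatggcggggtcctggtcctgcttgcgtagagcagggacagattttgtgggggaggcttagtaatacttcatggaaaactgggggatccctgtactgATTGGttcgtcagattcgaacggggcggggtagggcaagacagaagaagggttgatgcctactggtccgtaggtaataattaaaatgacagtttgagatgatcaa
Lss: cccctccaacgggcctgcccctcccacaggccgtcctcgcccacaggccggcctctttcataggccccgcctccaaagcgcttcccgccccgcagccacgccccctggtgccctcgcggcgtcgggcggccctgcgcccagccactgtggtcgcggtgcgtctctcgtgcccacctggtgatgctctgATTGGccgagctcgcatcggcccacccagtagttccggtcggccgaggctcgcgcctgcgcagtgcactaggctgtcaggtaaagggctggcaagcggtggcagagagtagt
Hmgcs1: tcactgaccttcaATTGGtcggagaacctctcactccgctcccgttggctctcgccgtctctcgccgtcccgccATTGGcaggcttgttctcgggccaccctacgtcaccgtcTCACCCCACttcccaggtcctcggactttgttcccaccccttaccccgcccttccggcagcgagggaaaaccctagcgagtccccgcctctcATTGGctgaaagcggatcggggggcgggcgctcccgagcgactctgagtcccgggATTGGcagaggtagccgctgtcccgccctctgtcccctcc
Abcg8: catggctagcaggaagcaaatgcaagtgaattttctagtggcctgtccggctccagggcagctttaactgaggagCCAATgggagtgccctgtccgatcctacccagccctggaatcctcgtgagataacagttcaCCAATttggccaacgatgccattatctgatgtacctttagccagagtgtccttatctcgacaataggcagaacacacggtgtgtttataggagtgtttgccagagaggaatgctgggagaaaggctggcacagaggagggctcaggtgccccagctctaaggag

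RefSeq windows were matched for 24 of the 30 members, 32 windows in all. A CCAAT box on either strand stood in 20 of the 32 windows and in 37.4% of all 32851 promoter windows. Among the enzymes it stood in 14 of 18 windows, those of 14 of the 15 genes with a window. The sterol regulatory element letters, searched on both strands, stood in 1 of 32 member windows and in 1.24% of all. The LXR-type repeat, AGGTCA repeated in the same direction with 4 bases between, stood in none of the 32 and in 0.0152% of all. These are matches of letters in a short window and locate no bound site. The Abcg8 window shares 209 bases with the window of Abcg5, whose start site lies 110 bases away on the other strand, and this window was chosen after the values of both genes were seen.

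Across the synthesis enzymes, 16 of 18 fitted differences were positive in KO over WT, with a median log2 fold change of 0.37 and a range of -0.55 to 0.80. For comparison, 53.7% of all genes tested were positive, with a median of 0.03. Only Hsd17b7, 1 of 18, had an unadjusted p under 0.05 and was higher in KO, beside 7.25% of all genes tested, so the number of enzymes past that mark was no larger than the background; none passed after adjustment over all genes (edgeR). The enzyme levels of KO and WT libraries overlapped for every enzyme, as they did for all 30 members; over all genes tested, 0.634% had every KO library above every WT library and 0.58% had every KO library below.

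**Figure D1:**
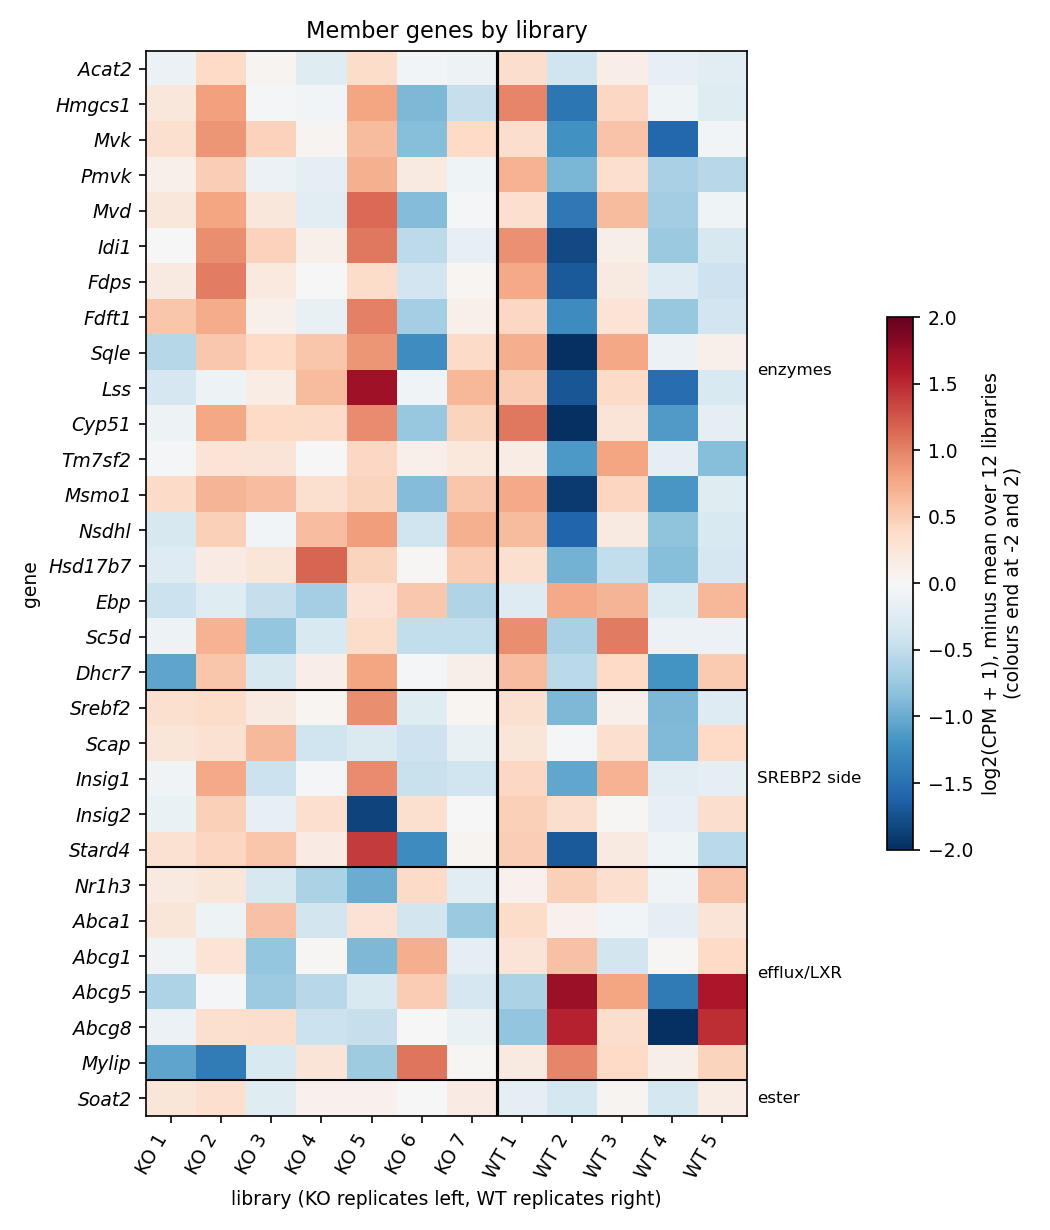
Level of each of the 30 genes in each library, as log2(CPM + 1) minus the gene's mean over the 12 libraries (red above, blue below; colours end at -2 and 2), with the 7 KO libraries left of the 5 WT libraries. WT replicate 2 is blue across nearly all enzymes, where it holds the lowest level of 14 of 18, and red for the transporters Abcg5 and Abcg8.

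Hsd17b7, the ketosteroid reductase that acts with Nsdhl and Msmo1 in removing the C4 methyl groups of lanosterol, had 37.7 CPM at the lowest, 53.4 at the median and 102.8 at the highest of the KO libraries, and 56.7, 23.02, 31.9, 24.5 and 35.8 CPM in WT replicates 1 to 5. KO replicates 4, 5 and 7 stood above every WT library, and the groups overlapped through WT replicate 1. The KO mean was 59.6 ± 21.1 CPM (SD, n = 7), against a WT mean of 34.4 ± 13.5 CPM (SD, n = 5). The fitted log2 fold change was 0.79 ± 0.28 (SE; edgeR unadjusted p = 0.013, adjusted p = 0.248). It was 1.26 in the deeper libraries, 0.45 in the shallower ones (edgeR unadjusted p = 0.187) and positive in every alternative fit that was run. Without KO replicates 3, 4 and 6 it was 0.62 (edgeR unadjusted p = 0.051).

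Lss, the cyclase that closes oxidosqualene into lanosterol, had 67.5 CPM at the lowest, 94.9 at the median and 279 at the highest of the KO libraries. Its WT levels were 122.7, 25.6, 112.5, 29.1 and 69.3 CPM in replicates 1 to 5. WT replicates 2 and 4 stood below every KO library, while WT replicates 1 and 3 exceeded the KO median. Its log2 fold change was 0.80 ± 0.47 (edgeR adjusted p = 0.439), with 1.79 in the deeper and 0.11 in the shallower libraries. The highest level, in KO replicate 5, was 10.9 times the lowest, in WT replicate 2, which was the largest such ratio among the enzymes. By the SD of log2 CPM over the 12 libraries, Sqle varied more (0.999 against 0.948 for Lss).

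Ebp, the sterol isomerase that moves the double bond of the B ring, was 1 of 2 enzymes with a negative difference. Its levels ran from 81.0 to 189 CPM in KO with a median of 96.2, against 108, 220.3, 209, 107 and 205 CPM in WT replicates 1 to 5. In 4 of 7 KO libraries Ebp lay below every WT library, and the groups overlapped through KO replicates 2, 5 and 6. For Ebp the log2 fold change was -0.55 ± 0.27 (edgeR unadjusted p = 0.066, adjusted p = 0.373), and it was -0.58 in the deeper and -0.56 in the shallower libraries. The difference of Ebp was thus nearly the same in both depth classes.

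Fdft1, squalene synthase, had 70.0 CPM at the lowest, 121 at the median and 226 at the highest of the KO libraries, and 150.6, 46.5, 136, 65.6 and 86.0 CPM in WT replicates 1 to 5. KO replicates 1, 2 and 5 stood above every WT library, and the log2 fold change was 0.55 ± 0.34 (edgeR adjusted p = 0.464), with 0.99 in the deeper and 0.34 in the shallower libraries. In the GENCODE annotation, 18.3% of the exon bases of Fdft1 are shared with Ctsb on the opposite strand. Because the strand setting of the counting is not given, reads of these genes cannot be told apart there. On the same strand, Fdps shares 26.7% of its exon bases with Gm43738 and Tm7sf2 12.1% with Vps51, where strand cannot separate the reads.

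The remaining enzymes fell into those of the early pathway, up to farnesyl diphosphate, and those that convert lanosterol to cholesterol. Among the early enzymes, the log2 fold change was 0.52 ± 0.39 for Mvk (mevalonate kinase), 0.51 ± 0.45 for Idi1 (isopentenyl diphosphate isomerase), 0.41 ± 0.40 for Mvd (mevalonate diphosphate decarboxylase), 0.34 ± 0.35 for Fdps (farnesyl diphosphate synthase) and 0.28 ± 0.29 for Pmvk (phosphomevalonate kinase). Acat2, the thiolase that starts the chain, and Hmgcs1, the HMG-CoA synthase whose promoter holds the sterol regulatory element letters, stood close to 0 at 0.09 ± 0.16 and 0.05 ± 0.39. None of these 7 had an unadjusted p under 0.05 in edgeR. In the shallower libraries Hmgcs1 stood at -0.29, Pmvk at -0.12 and Acat2 at -0.05, against 0.83, 1.02 and 0.34 in the deeper ones. Acat2 had the narrowest spread of the enzymes, with 50.1 to 78.0 CPM in KO and 44.6 to 75.7 CPM in WT; it has a close paralog, Acat3, with which reads may be shared.

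Sqle, the squalene epoxidase that makes the substrate of Lss, had a log2 fold change of 0.13 ± 0.48, and its levels ran from 33.4 to 148 CPM in KO and from 14.3 to 138 CPM in WT. Past lanosterol, Nsdhl (a decarboxylating sterol dehydrogenase) had 0.53 ± 0.36, Msmo1 (the C4-methylsterol oxidase) 0.50 ± 0.42, Cyp51 (the lanosterol demethylase) 0.44 ± 0.46 and Tm7sf2 (a sterol reductase) 0.27 ± 0.28 on the log2 fold change scale. Dhcr7, which makes the last reduction of one branch of the pathway, stood at 0.02 ± 0.35. Sc5d, the desaturase that acts next to Dhcr7, was the other enzyme with a negative difference, at -0.44 ± 0.34; its difference was 0.25 in the deeper libraries and -0.76 in the shallower ones. Tm7sf2 and Sqle also differed in sign between the depth classes, with 1.19 and 0.99 in the deeper libraries and -0.13 and -0.27 in the shallower ones. The depth classes differed for Tm7sf2 by 1.33 (edgeR interaction unadjusted p = 0.0033, adjusted p = 0.514). Over all 12 libraries none of these 7 had an unadjusted p under 0.05 in edgeR.

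**Figure D2:**
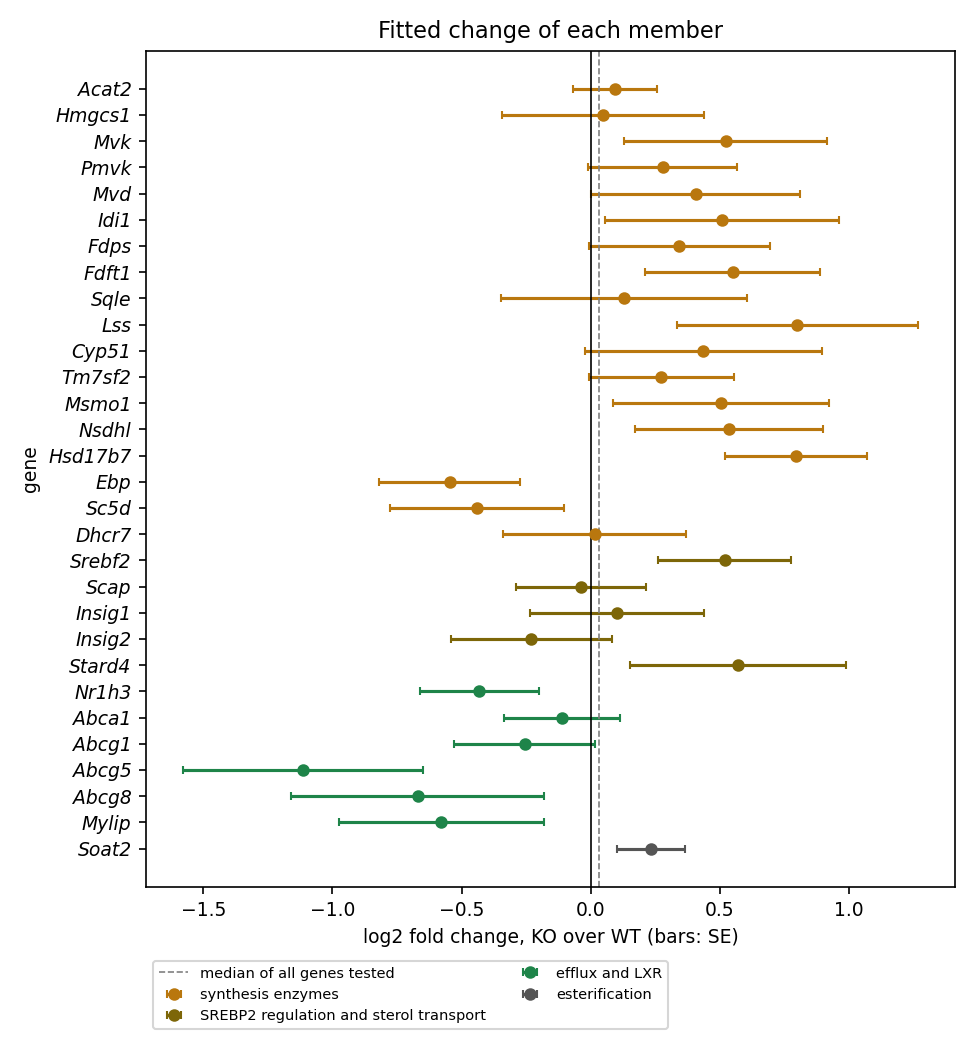
Fitted log2 fold change of each gene, KO over WT (points, with SE as bars), ordered by role and coloured by group, with a solid line at 0 and a dashed line at the median of all genes tested, 0.03. The enzymes lie mostly right of 0 with Ebp and Sc5d left of it, and all 6 efflux and LXR genes lie left of 0; no gene passed the adjusted threshold.

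The enzymes shared their lowest library more than their highest. KO replicate 5 held the highest level of 8 of 18 enzymes and lay above the median of the 12 libraries for each. KO replicates 3 and 4 held the lowest level of 1 enzyme each, WT replicate 2 of 14 and WT replicate 4 of 2. Summed over the 18 enzymes, the level was 1288 CPM at the lowest (KO replicate 6), 1738 at the median and 2739 at the highest of the KO libraries. In WT replicates 1 to 5 it was 2663, 856, 2363, 1189 and 1533 CPM. KO and WT libraries overlapped over most of the range, and the sums averaged 1915 ± 523 CPM over the KO libraries (SD, n = 7) and 1721 ± 769 CPM over the WT libraries (SD, n = 5). The KO minus WT difference of these means, 194 CPM, was -22.4 CPM without WT replicate 2, 739 CPM in the deeper libraries and -171 CPM in the shallower ones, so its direction rested on WT replicate 2. The 3 libraries with the lowest enzyme sums, KO replicate 6 and WT replicates 2 and 4, were also those with the lowest hepatocyte marker sums, at 68076, 60564 and 71093 CPM. In bulk tumour RNA, fewer cells of a type and less RNA per cell cannot be told apart, and the part of cell composition in the enzyme levels was not tested.

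Srebf2, which encodes SREBP2, had 80.8 CPM at the lowest, 108 at the median and 183 at the highest of the KO libraries. In WT replicates 1 to 5 it had 119.9, 51.1, 102.4, 51.0 and 80.3 CPM. KO replicates 1, 2 and 5 stood above every WT library, and WT replicates 2, 4 and 5 below every KO library. The log2 fold change was 0.52 ± 0.26 (edgeR unadjusted p = 0.065, adjusted p = 0.372), with 0.87 in the deeper and 0.30 in the shallower libraries.

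Stard4, which carries sterols between membranes, had a log2 fold change of 0.57 ± 0.42 with 30.8 to 198 CPM in KO and 22.7 to 105.3 CPM in WT. Scap, the escort of SREBP2, stood at -0.04 ± 0.25, and Insig1, which is itself induced by SREBP2, at 0.10 ± 0.34. Insig2, which retains the same complex and whose main liver transcript is repressed by insulin, stood at -0.23 ± 0.31. Of the 5 genes, 3 were positive and none had an unadjusted p under 0.05 in edgeR.

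KO replicate 5 parted the Insig genes. Its Insig2 level was 99.0 CPM, while the other 6 KO libraries lay between 318 and 500.2 CPM and the WT libraries between 319 and 498 CPM. Its Insig1 level, 428 CPM, was the highest of the 12 libraries. Without KO replicate 5 the log2 fold change of Insig2 was -0.07. The ratio of Insig1 to Insig2 CPM was 4.33 there and between 0.24 and 0.99 in the other 11 libraries. Per kilobase of exon, Insig2 was the most abundant member, with a median of 117 CPM per kb over the 12 libraries, followed by Insig1 with 66.0 and Ebp with 47.1. Idi1 was the lowest with 3.58 CPM per kb, next to Abcg1 with 3.81.

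**Figure D3:**
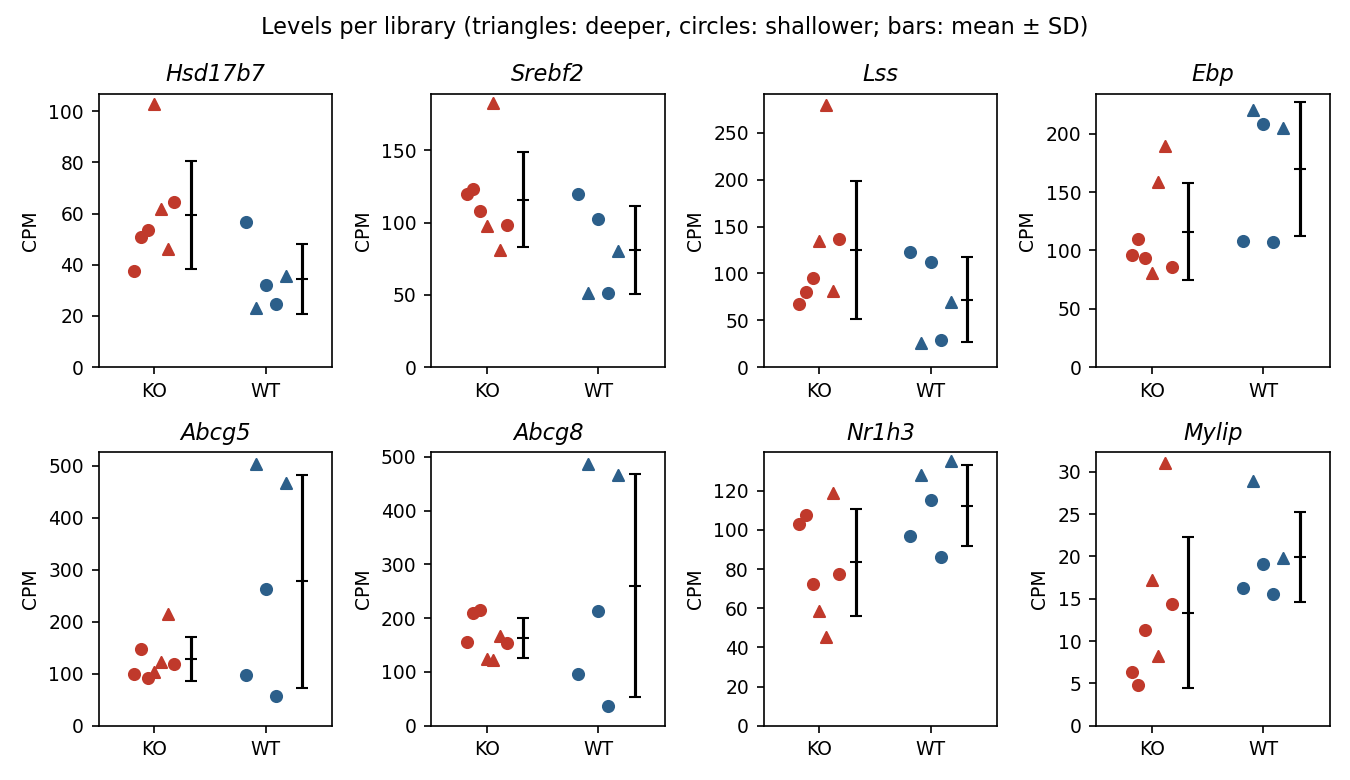
Level in CPM of 8 members in the 7 KO libraries (red, left) and the 5 WT libraries (blue, right), 1 point per library, with triangles for deeper and circles for shallower libraries and bars for mean ± SD. The groups overlap for every gene shown, and Abcg5 and Abcg8 spread more widely among the WT libraries than among the KO libraries.

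All 6 efflux and LXR genes had negative fitted differences, with a median log2 fold change of -0.50 and a range of -1.11 to -0.11. The median was -0.62 in the deeper libraries and -0.14 in the shallower ones, where 4 of 6 were negative. The 8 hepatocyte markers had 7 negative differences, with a median of -0.15 and 1 at an unadjusted p under 0.05 in edgeR. Among markers of other liver cells, all 6 endothelial ones (Kdr, Clec4g, Stab2, Pecam1, Cdh5 and Lyve1) also had negative differences. The endothelial median was -0.78, with 3 at an unadjusted p under 0.05 in edgeR. Their sums ran from 119.8 to 533 CPM in KO and from 286 to 469 CPM in WT, with no marker at 0. Of 5 stellate and stromal markers, 4 were negative with a median over the 5 of -0.79. The 11 Kupffer cell and macrophage markers split into 6 negative and 5 positive. Their median was -0.04, and they ran from Clec4f at -2.47 to Marco at 2.02. The part of these cells in the efflux gene levels was not tested. Abcg5 alone had an unadjusted p under 0.05, against 7.44% of all genes tested in that direction, and none passed after adjustment in edgeR. Abcg5 and Abcg8 encode the paired subunits of the transporter that moves sterols from hepatocytes into bile. Abcg5 had 91.3 CPM at the lowest, 119.7 at the median and 216 at the highest of the KO libraries. In WT replicates 1 to 5 it had 97.2, 504, 263, 56.4 and 467 CPM. WT replicates 2, 3 and 5 stood above every KO library, while WT replicate 4 stood below all of them. The log2 fold change was -1.11 ± 0.47 (edgeR unadjusted p = 0.033, adjusted p = 0.302). It was -1.73 in the deeper and -0.28 in the shallower libraries, and -0.71 once Xist class entered the fit as a covariate (edgeR unadjusted p = 0.348). Without WT replicate 2 it was -0.79 (edgeR unadjusted p = 0.121) and without WT replicate 5 -0.84 (edgeR unadjusted p = 0.11). At the other end of the fits with a library left out, it was -1.38 without WT replicate 4 (edgeR unadjusted p = 0.0036, adjusted p = 0.220). In limma's voom without sample weights it was -0.63 (unadjusted p = 0.218), and without KO replicates 3, 4 and 6 it was -1.21 in edgeR (unadjusted p = 0.071).

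Abcg8 had 121 CPM at the lowest, 155 at the median and 215 at the highest of the KO libraries, and 96.7, 486, 213, 37.4 and 467 CPM in WT replicates 1 to 5. The WT libraries thus lay on both sides of the KO range, with WT replicates 2 and 5 above it and WT replicates 1 and 4 below it. For Abcg8 the log2 fold change was -0.67 ± 0.49 (edgeR adjusted p = 0.532); it was -1.80 in the deeper libraries and 0.66 in the shallower ones, a difference between depth classes of -2.45 (edgeR interaction unadjusted p = 0.0047, adjusted p = 0.514). WT replicates 2 and 5, which held the highest Abcg5 and Abcg8, are the WT libraries of the deeper class. They also had the highest sums of 4 adipose and adrenal markers (Adipoq, Plin1, Star and Cyp11a1), 11.2 and 16.6 CPM. The sums ran from 0.20 to 2.37 CPM in KO and from 0.44 to 16.6 CPM in WT, with Adipoq at 0 in 7 libraries and Plin1 at 0 in 9. Most of the counts in these sums were of the adrenal markers. Cyp11a1 had 1157 counts over all libraries and Star 306, against 59 for Adipoq and 20 for Plin1. With depth class as a covariate the log2 fold change was -0.42 for Abcg8 (edgeR unadjusted p = 0.430). For Abcg5 it was then -0.90 (edgeR unadjusted p = 0.045, adjusted p = 0.305). Whether tissue in the sample or a cause behind the depth classes has a part in the Abcg5 and Abcg8 levels was not tested.

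The balance of the transporter subunits also varied. The ratio of Abcg8 to Abcg5 CPM was 0.77 at the lowest, 1.28 at the median and 2.35 at the highest of the KO libraries, and 0.99, 0.96, 0.81, 0.66 and 0.9998 in WT replicates 1 to 5. In 5 of 7 KO libraries it exceeded every WT library. The mean ratio was 1.65 in KO and 0.82 in WT within the shallower libraries, and 0.99 and 0.98 within the deeper ones. The ratio was chosen after the values were seen and was not tested. The genes lie head to head and share 82 exon bases on opposite strands, 3.02% of the exon bases of Abcg5.

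Nr1h3, which encodes LXR alpha, had 45.2 CPM at the lowest, 77.5 at the median and 119 at the highest of the KO libraries, and 97.0, 128, 115, 86.4 and 135 CPM in WT replicates 1 to 5. In 4 of 7 KO libraries it lay below every WT library, with a log2 fold change of -0.43 ± 0.23 (edgeR unadjusted p = 0.085, adjusted p = 0.402). It was -0.83 in the deeper and -0.15 in the shallower libraries.

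Mylip, a ubiquitin ligase that LXR induces and that tags lipoprotein receptors of the cell surface for degradation, had 4.79 CPM at the lowest, 11.3 at the median and 31.0 at the highest of the KO libraries, and 16.3, 28.95, 19.1, 15.6 and 19.8 CPM in WT replicates 1 to 5. In 5 of 7 KO libraries it lay below every WT library, while KO replicate 6 held the highest level of all. For Mylip the log2 fold change was -0.58 ± 0.40 (edgeR unadjusted p = 0.169, adjusted p = 0.508), with -0.38 in the deeper and -0.88 in the shallower libraries. With a library left out it ran from -0.94 (without KO replicate 6) to -0.41 (without WT replicate 2). The edgeR unadjusted p of these fits was 0.012 and 0.359. Without KO replicates 3, 4 and 6, an alternative added after the data were seen, the log2 fold change was -1.26 (edgeR unadjusted p = 0.0037, adjusted p = 0.170). KO replicate 6 also had the highest summed level of 11 Kupffer cell and macrophage markers, 2980 CPM, where the sums ran from 421 to 2980 CPM in KO and from 930 to 1719 CPM in WT, with no marker at 0 in any library; the part of these cells in its Mylip level was not tested.

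Abca1, which loads cholesterol onto apolipoprotein A-I, had 121 to 308 CPM in KO and 181 to 263 CPM in WT, and its log2 fold change was -0.11 ± 0.22. Abcg1, which acts on mature lipoproteins and is abundant in macrophages, had 14.2 to 45.6 CPM in KO and 20.9 to 41.4 CPM in WT, with a log2 fold change of -0.26 ± 0.27; its highest level was again in KO replicate 6. Neither gene had an unadjusted p under 0.05 in edgeR. Soat2, the hepatocyte and intestinal enzyme that esterifies cholesterol for storage and lipoproteins, had 33.1 to 49.9 CPM in KO and 30.6 to 43.4 CPM in WT. Its log2 fold change was 0.23 ± 0.13 (edgeR adjusted p = 0.419), and it varied least of the 30 members, 1.63 times between the lowest and the highest library.

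Set side by side, the 23 genes of synthesis, SREBP2 regulation and sterol transport had 19 positive differences and a median log2 fold change of 0.34, and the 6 efflux and LXR genes had 0 positive differences and a median of -0.50. In the shallower libraries 13 of the 23 were positive with a median of 0.11, and in the deeper ones 20 were positive with a median of 0.94. A score for each set in each library, the mean log2 CPM of its members, was used to compare the sets within libraries. The synthesis score minus the efflux score was 0.37, 0.83, 0.47, 0.53, 1.31, -0.66 and 0.49 in KO replicates 1 to 7. It was 0.77, -1.92, 0.27, 0.11 and -0.81 in WT replicates 1 to 5. The sign of this value depends on which genes are in each set, so it serves only to compare libraries. KO replicate 5 held the highest value and WT replicate 2 the lowest, and the groups overlapped over most of their range.

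This difference averaged 0.48 ± 0.60 over the KO libraries (SD, n = 7) and -0.32 ± 1.06 over the WT libraries (SD, n = 5), so that KO minus WT was 0.79. Within the deeper libraries the KO minus WT difference was 1.76, and within the shallower ones it was 0.16. Without WT replicate 2 it was 0.39, and the median log2 fold change of the 23 genes was then 0.12. The contrast of synthesis with efflux genes was thus larger in the deeper libraries, of which 3 are KO and 2 WT. With the 18 enzymes alone in place of the 23 genes it was 0.84, and without Abcg5 and Abcg8 in the efflux set it was 0.80. No p is given, since the sets were chosen with results known.

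**Figure D4:**
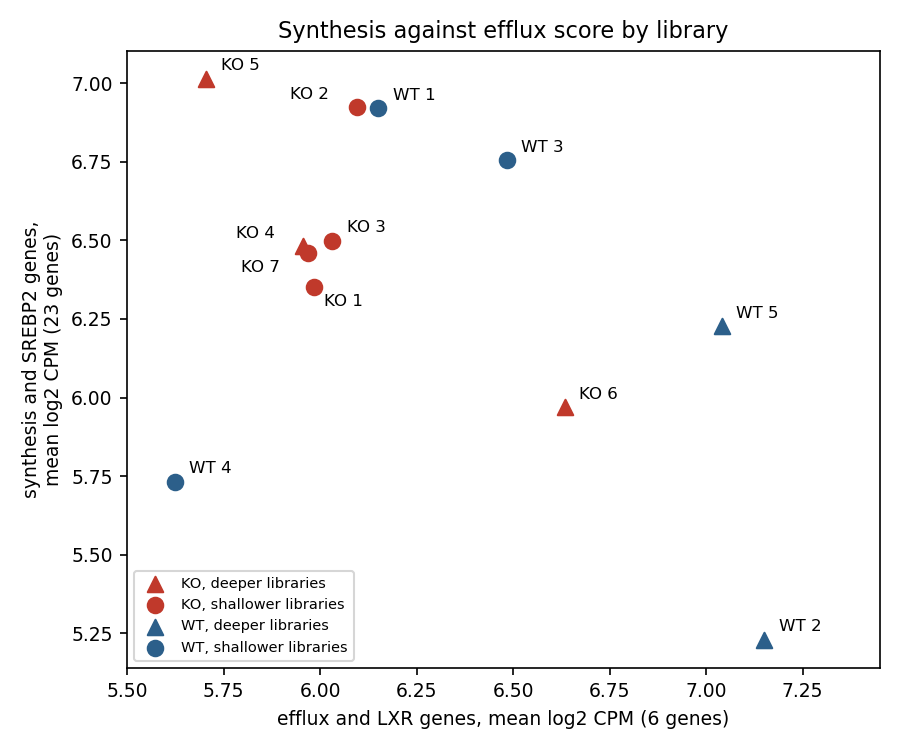
Mean log2 CPM of the 6 efflux and LXR genes (horizontal axis) against that of the 23 synthesis, SREBP2 and sterol transport genes (vertical axis), 1 point per library, KO in red and WT in blue, with triangles for deeper and circles for shallower libraries. KO libraries gather near an efflux score of 6 except KO replicate 5 at 5.71 and KO replicate 6 at 6.63. WT libraries spread from 5.62 to 7.15, with WT replicate 2 at the lower right.

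Across the 12 libraries the enzymes varied with Srebf2. Pearson's r of log2 CPM was positive for 17 of 18 enzymes, with a median of 0.80, and 12 of 18 passed the permutation test at an adjusted p of 0.05 by both Pearson's r and Spearman's rho (100000 permutations, Benjamini-Hochberg over the 29 other members). Of the 14665 other genes tested, 2.79% had both r and rho at or above the smallest values among these 12 enzymes, 0.67 and 0.66. Fdft1 was closest, with r = 0.95 and rho = 0.97 (permutation p = 1e-05 for each, the smallest the permutations can give; adjusted p = 0.00015 and 0.00029). Without WT replicates 2 and 4, the libraries farthest from the median of Srebf2, r of Fdft1 was 0.93, and the median over the enzymes was 0.66 with a range of -0.19 to 0.93. Within the 7 shallower libraries the median was 0.70, and the 5 deeper libraries are too few for such a value. Permutations here and below ran over all 12 libraries regardless of genotype, so a difference between KO and WT enters r and p. Within the KO libraries alone, r of the enzymes ran from -0.05 (Hsd17b7) to 0.94 (Mvd), with 0.93 for Fdft1. These genes share libraries, scaling and depth.

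Several members departed from this. Ebp had r = -0.27, and Hsd17b7 had 0.65 over all libraries but 0.20 without WT replicates 2 and 4, so that its relation to Srebf2 rested on those libraries. Insig1 and Stard4 had r = 0.75 and 0.81, and both passed by either measure. Mylip ran opposite, with r = -0.65 and rho = -0.74 (permutation p = 0.022 and 0.0082; adjusted p = 0.037 and 0.020), values that 1.92% of the other genes tested reached or passed in that direction, and r was -0.70 without WT replicates 2 and 4 and -0.44 within the shallower libraries. Abcg8 had r = -0.06 over all libraries, -0.52 without WT replicates 2 and 4, -0.28 within the KO libraries and 0.82 within the shallower ones.

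**Figure D5:**
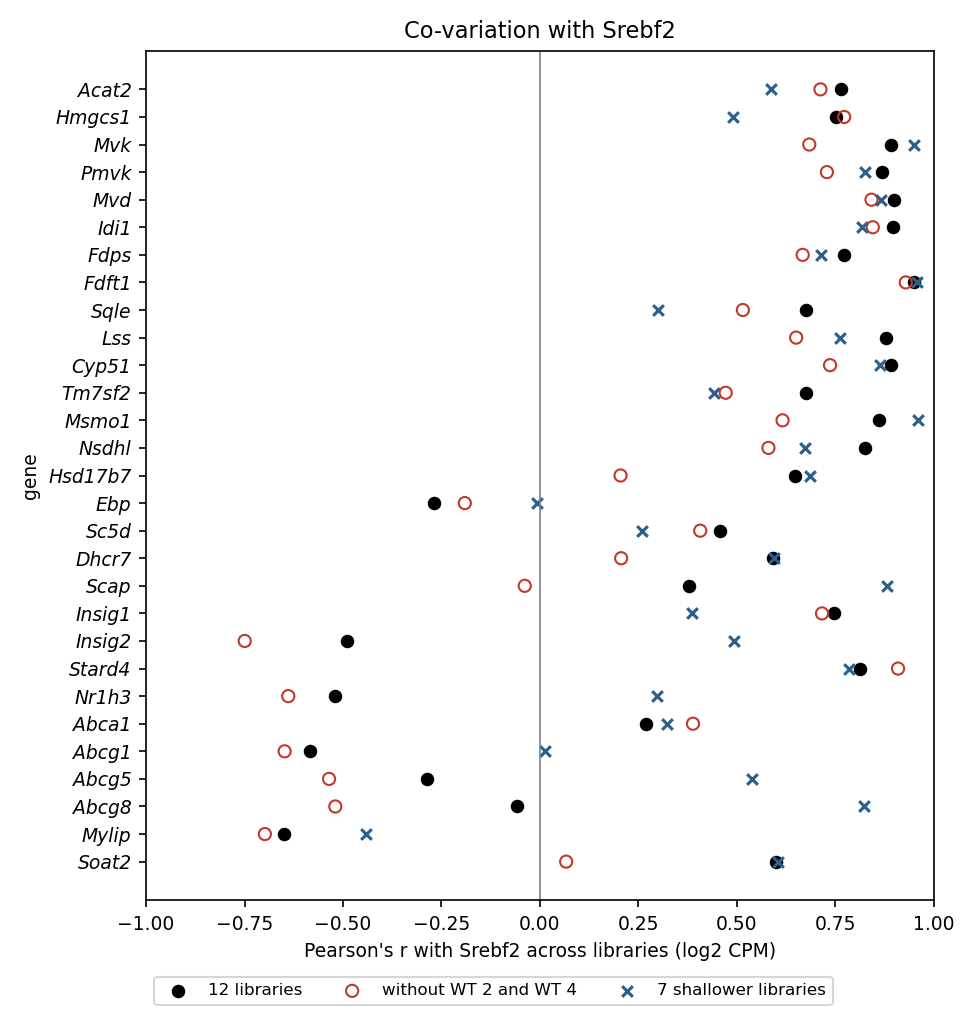
Pearson's r of each member's log2 CPM with that of Srebf2 over the 12 libraries (filled circles), without WT replicates 2 and 4 (open circles) and within the 7 shallower libraries (crosses). Nearly all enzymes lie at positive r in each setting, with Ebp at or below 0, while Insig2, Nr1h3, Abcg5 and Abcg8 are among those that change sign between the settings.

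Against Nr1h3, in a second family of 29, none of the 18 enzymes and none of the 5 other efflux and LXR genes passed by either measure. The 5 efflux genes had positive r, with a median of 0.49. Abcg1 was the closest of them with r = 0.73 and rho = 0.72 (permutation p = 0.0073 and 0.011; adjusted p = 0.131 and 0.103). Without KO replicates 4 and 5, farthest from the median of Nr1h3, r of Abcg1 was 0.72, and within the shallower libraries it was 0.49. Abca1 had r = 0.01 with Nr1h3.

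Of 25 further sterol genes, listed for their roles in SREBP processing, LXR partners, lysosomal handling, uptake and transport, 24 were tested. In this list 14 of 24 (58.3%) were positive, beside 53.7% of all genes tested, and the median log2 fold change was 0.11. Only 1 had an unadjusted p under 0.05, beside 7.25% of all genes tested that were higher in KO, so neither count stood apart from the background. It was Gramd1a, which encodes an endoplasmic reticulum protein that takes up accessible cholesterol from the plasma membrane. Gramd1a had 15.97 CPM at the lowest, 27.1 at the median and 31.2 at the highest of the KO libraries, and 18.4, 12.3, 18.6, 16.3 and 12.2 CPM in WT replicates 1 to 5. In 6 of 7 KO libraries it lay above every WT library, and KO replicate 6 lay within the WT range. The log2 fold change was 0.66 ± 0.19 (edgeR unadjusted p = 0.0045, adjusted p = 0.209). Scarb1, the scavenger receptor that takes up cholesteryl esters from high-density lipoprotein, stood at 0.19 ± 0.25 and the endocytic receptor Lrp1 at 0.07 ± 0.29. None of the 24 passed after adjustment.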

How the data were processed

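RNA of 7 KO and 5 WT tumour libraries was sequenced after extraction with Trizol, per the labels' protocols. The authors deposited 1 table of raw read counts per gene symbol, with no normalization. Alignment used HISAT2 and mm10, per the submitters' processing notes; for the counting program, its strand setting and the annotation, no source used here gives a name. Genotype labels set the groups, and replicates were numbered in accession order, which pairs nothing. The column title of KO replicate 7 starts with KP; its genotype label was followed. Libraries held 17462102 to 46747125 counts.

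Low genes were dropped by filterByExpr in edgeR 4.0.16 (R 4.3.3; minimum count 10, minimum total 15), which left 14666 genes with 99.9% of the counts. KO was tested against WT with TMM scaling, robust quasi-likelihood F-tests and Benjamini-Hochberg adjustment over all 14666 genes at 0.05. Standard errors of log2 fold changes are their size over √F. For log2 CPM the prior count was 2. The common biological coefficient of variation was 0.492. On simulated data for this comparison (14464 genes, 50 changed per size and direction), edgeR recovered 36 and 39 of the genes raised and lowered 4-fold and 14 and 7 of those raised and lowered 2-fold, with 8 unchanged genes called.

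All members are named; library values are given in full for those with the smallest p per role and those the comparisons turn on. The members, lists and tests were chosen with earlier results of these data known. Alternatives were RLE and upper-quartile scaling, other filters, DESeq2 1.42.0, limma 3.58.1 (voom with and without sample weights), covariates (depth class, Xist class, title number range), depth subsets, each library left out, both libraries with overlapping Pck1 levels left out, a prior count of 0.5 and unit-SD scaling. Added after seeing the data were leaving out KO replicates 3, 4 and 6 (the KO libraries with high neutrophil genes), the efflux set without Abcg5 and Abcg8, and the 18 enzymes alone. Sequences came from RefSeq (GRCm38.p6), and exon lengths from GENCODE on the same assembly. One listed gene, Faxdc2, was not matched.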

Additional observations from a re-analysis of the deposited data

Results flagged for a closer look

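In 4 of 66 groups of values, 1 library lay far from the others of its group by Dixon's ratio, the gap to the nearest library over the whole range; chance flags about 1 in 20 groups. Insig2 in KO replicate 5 was lowest among KO, at 6.63 log2 CPM with the nearest at 8.31 (ratio 0.720). Msmo1 in KO replicate 6 was lowest among KO, at 5.56 log2 CPM with the nearest at 6.76 (ratio 0.765). The efflux and LXR score in KO replicate 6 was highest among KO, at 6.63 with the nearest at 6.10 (ratio 0.580). Sqle in WT replicate 2 was lowest among WT, at 3.84 log2 CPM with the nearest at 6.20 (ratio 0.722).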

How the results depend on the processing

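Of 780 member results under 26 alternatives, 736 kept their sign and side of the threshold, 40 changed sign and 4 passed the threshold. Under limma's voom with sample weights, 4 members reached an adjusted p under 0.05: Ebp (0.0215), Hsd17b7 (0.0247), Nr1h3 (0.0432) and Abcg5 (0.0454). That fit called 2121 of the 14666 genes tested. The share of members past the threshold was thus no larger than that of all genes. Signs turned, on the log2 fold change scale, for Sc5d in the deeper libraries (0.25) and in the shallower ones for Abcg8 (0.66), Scap (0.29), Abca1 (0.010), Insig1 (-0.30), Hmgcs1 (-0.29), Sqle (-0.27), Dhcr7 (-0.19), Tm7sf2 (-0.13), Pmvk (-0.12) and Acat2 (-0.055). They also turned with the Xist class for Hmgcs1 (-0.12), Insig1 (-0.021) and Scap (0.020), with the title range for Insig1 (-0.035) and Dhcr7 (-0.012), and for Scap in voom without weights (0.022). Dhcr7 turned in voom with weights (-0.087), with depth as a covariate (-0.0075) and without both libraries of overlapping Pck1 (-0.12). With a library left out, Hmgcs1 ran from -0.18 to 0.37, Sqle from -0.15 to 0.35, Dhcr7 from -0.19 to 0.18, Scap from -0.21 to 0.060 and Insig1 from -0.087 to 0.33. The number of genes past the threshold, 0 in the main test, was 489 in DESeq2, 2121 in voom with weights, 5 in voom without, 3 with depth as a covariate, 2 with the title range, 2 in the deeper libraries, 1 each with upper-quartile scaling, no filter and the 1 CPM filter, and 0 to 65 with a library left out (65 without KO replicate 6). In the main test 2155 genes had an unadjusted p under 0.05. The number of members at an unadjusted p under 0.05, 2 in the main test, was 14 in voom with weights, 6 in the deeper libraries, 1 in the shallower ones, 1 with the Xist class as a covariate and 1 to 6 with a library left out. The share of all genes at that mark was counted in the main test alone. The member counts of the other fits therefore have no background to be read against. The median log2 fold change of the 23 synthesis genes, 0.34, was 0.94 in the deeper libraries, 0.11 in the shallower ones and 0.12 to 0.57 with a library left out; that of the efflux genes, -0.50, was -0.14 in the shallower libraries and ran from -0.61 to -0.35 with a library left out. The difference of scores was 1.76 in the deeper libraries, 0.16 in the shallower ones and 0.39 to 1.06 with a library left out. The causes were not tested. All 6 efflux genes stayed negative in every fit except that of the shallower libraries, where 4 did. Some of these values were close to no difference, with Abcg8 at -0.0066 in voom without weights and Abca1 at -0.011 without KO replicate 7. Of the synthesis genes 13 (shallower libraries) to 20 of 23 were positive. No paired analysis was possible because the replicate numbers follow accession order. With a spread of 0.492 between libraries, changes of 2-fold were mostly not detectable in the simulation.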
